A study of Bos taurus with 31 samples.

Results

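Fetal livers whose dams received a vitamin and mineral supplement but a low-gain diet (VTM_LG) were compared with fetal livers from dams fed an energy and protein supplement to reach moderate gain, with no added vitamins and minerals (NoVTM_MG). The 16 livers, 8 per group, were chosen by the treatment label out of 31 in the series. All came from female fetuses with Angus-cross dams and 1 common sire, collected on day 83 of gestation. VTM_LG dams were fed 0.45 kg per day of ground corn with the premix, begun between 71 and 148 days before insemination, and were held to a target gain of 0.28 kg per day. NoVTM_MG dams were fed for a gain of 0.79 kg per day with a starch-based supplement that also held distillers grains, fish oil and urea. The remaining libraries, 8 of NoVTM_LG (neither supplement) and 7 of VTM_MG (both), entered the model as groups of their own. Because both maternal factors differ between VTM_LG and NoVTM_MG, their effects cannot be told apart in this comparison alone. Gain diets began at breeding, and the heifers belonged to 7 breeding groups with different lengths of supplementation, which the labels do not give per fetus.

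During this stage of gestation the fetal liver is both a metabolic organ and a site of blood formation, so a bulk liver library mixes RNA of hepatocyte precursors, blood-forming cells, endothelium and stroma. In such a mixture, fewer cells of a type and less RNA per cell cannot be told apart. Vitamins and trace minerals serve in antioxidant defence, methyl-group transfer and hormone-like signalling, only in part as enzyme cofactors. Maternal energy and protein set the supply of glucose and amino acids to the fetus. The counts are listed by Ensembl identifier, and 0 of 27607 identifiers could be paired with a symbol, so genes are given below by identifier or by rank, without their function or position. The labelled tissue could for the same reason not be checked against liver marker genes.

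The libraries held 13062894 to 18458776 counts, with 14642457 ± 1106427 in VTM_LG (SD, n = 8) and 14950925 ± 1697122 in NoVTM_MG (SD, n = 8). Genes with at least 1 count numbered 17118 to 17666 in VTM_LG and 17261 to 17652 in NoVTM_MG. VTM_LG replicates 4 and 7 stood apart from the other 14 libraries. They lay at 60.2 and 34 on the first principal component, which carried 22.1% of the variance among the 16 libraries, while the others lay between -23.1 and 0.43. In replicate 4 the most abundant gene of the series took 5.48% of the counts, against 8.98% to 11.7% in the other VTM_LG libraries and 9.17% to 11.4% in NoVTM_MG. Of 9 library measures, including these, 0 differed between the groups at an unadjusted p under 0.05 (exact permutation test, two-sided, 12870 splits, smallest p = 0.141, smallest adjusted p = 0.585). The differences are given below with and without these 2 libraries. Levels are in CPM, the count of a gene scaled to a fixed library size after TMM adjustment, which compares livers within a gene but not one gene with another, since it is not per length.

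**Figure D1:**
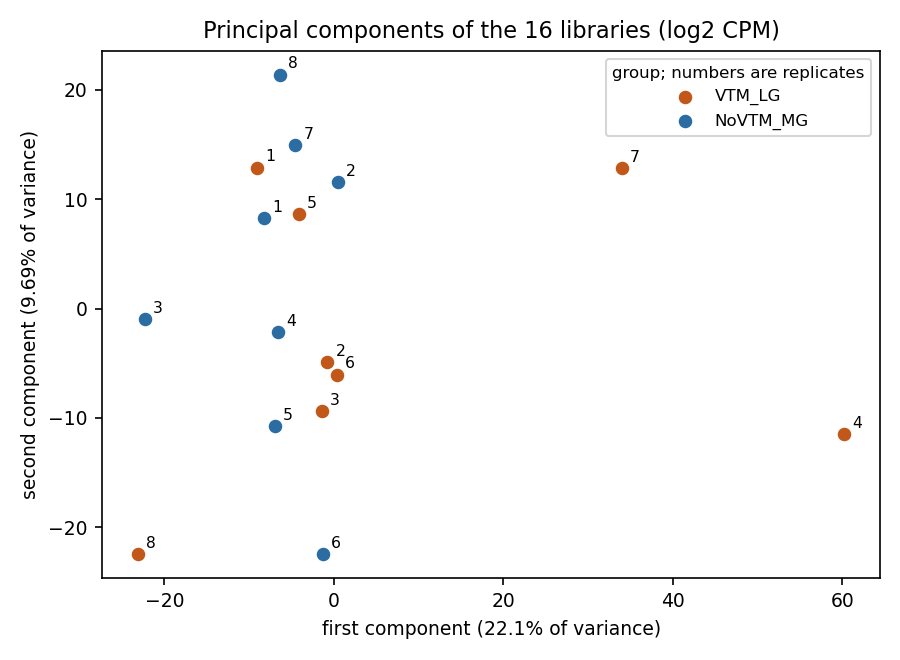
Scores of the 16 libraries on the first and second principal components of log2 CPM, coloured by group and numbered by replicate. VTM_LG replicates 4 and 7 sit at 60.2 and 34 on the first component, and the other 14 libraries between -23.1 and 0.43, with both groups mixed.

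No gene differed between VTM_LG and NoVTM_MG past an adjusted p of 0.05 in edgeR's quasi-likelihood test (0 of 14228 genes tested, 0%), and the smallest adjusted p was 0.137. The same counts gave 6 calls in DESeq2 (0.0422% of the genes), 3 higher and 3 lower in VTM_LG, and 0 in limma voom, where 1007 genes had an unadjusted p under 0.05. With VTM_LG replicates 4 and 7 left out, 1 of 14278 genes passed in edgeR (0.007%), ENSBTAG00000049916, which was lower in VTM_LG. At an unadjusted edgeR p under 0.05, 727 genes had higher values in VTM_LG (5.11%) and 545 had lower values (3.83%). Without those libraries the counts were 358 higher (2.51%) and 294 lower (2.06%). The total without them, 652 in edgeR and 656 in DESeq2, was below the 5% that no change would give on average over both directions. The 838 genes in limma voom were above it. With all libraries the totals, 1272 in edgeR, 1308 in DESeq2 and 1007 in limma voom, were also above it.

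Fold changes were small for most genes. Log2 fold changes had a median of -0.001, with -0.29 at the 5th percentile and 0.30 at the 95th. The estimate was under 1.5-fold, up or down, in 98% of genes. Counting the error, 79.7% of genes had both ends of their 95% interval under 1.5-fold, and 94.9% under 2-fold. Estimates of at least 2-fold were found for 25 genes with higher values in VTM_LG and 24 with lower values. Of these 49 genes, 44 had a mean under 10 CPM. The standard errors were widest at low levels, with a median on the log2 scale of 0.327 for genes under 1 CPM and 0.0775 for genes at 100 CPM and over.

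**Figure D2:**
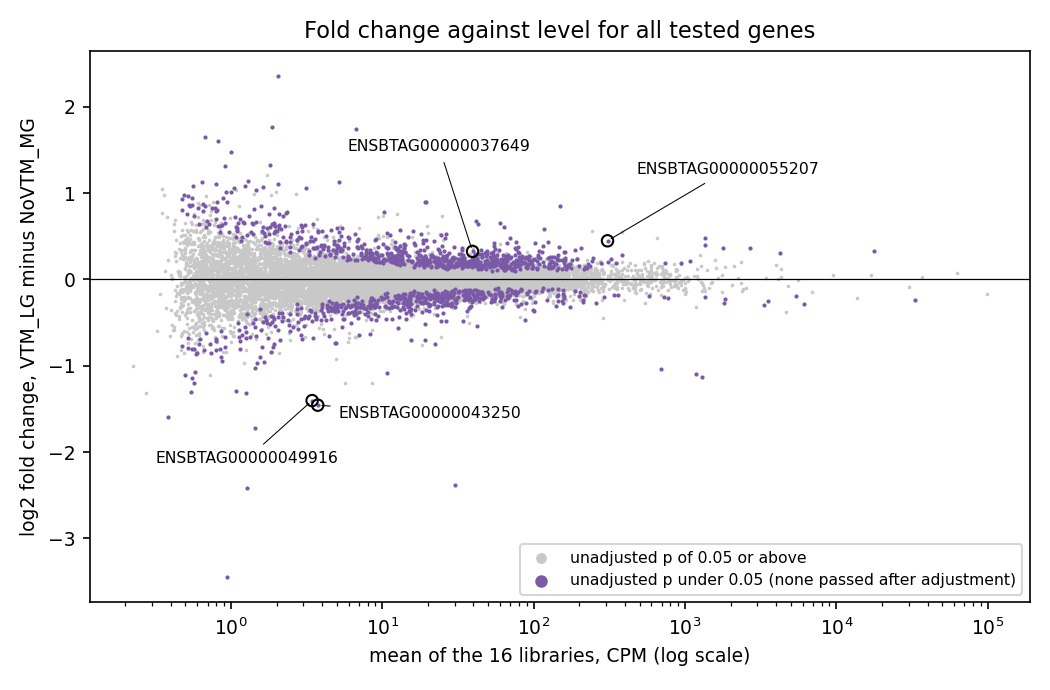
Log2 fold change of VTM_LG minus NoVTM_MG against the mean of the 16 libraries in CPM (log scale), 1 point per tested gene, with the 4 named genes circled. The points narrow towards high levels, and 0 of the 1272 genes with an unadjusted p under 0.05 passed after adjustment.

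ENSBTAG00000055207 had the smallest p among genes with higher values in VTM_LG. Its lowest, median and highest values were 330, 354 and 388 CPM in VTM_LG and 222, 244 and 320 CPM in NoVTM_MG. The 8 VTM_LG livers all lay above the 8 NoVTM_MG livers, so the groups did not overlap. The means were 355 ± 23.2 CPM (SD, n = 8) and 260 ± 37.3 CPM (SD, n = 8), 0.45 higher in VTM_LG on the log2 scale (SE 0.0946), with an adjusted p of 0.137 in edgeR and 0.0162 in DESeq2. Without VTM_LG replicates 4 and 7 the log2 fold change was 0.46 (adjusted p = 0.398 in edgeR, 0.0509 in DESeq2).

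Values of ENSBTAG00000055207 in the groups outside the comparison were 368 ± 65.3 CPM in NoVTM_LG (SD, n = 8) and 295 ± 40.4 CPM in VTM_MG (SD, n = 7). The pair of low-gain groups differed by -0.05 on the log2 scale (SE 0.0943, VTM_LG minus NoVTM_LG), which is within their spread. The pair of moderate-gain groups differed by 0.18 (SE 0.0976, VTM_MG minus NoVTM_MG, adjusted p = 0.955 in edgeR). Between gain levels, NoVTM_MG minus NoVTM_LG was -0.50 (SE 0.0946, adjusted p = 0.0541 in edgeR). VTM_MG minus VTM_LG was -0.26 (SE 0.0979, adjusted p = 0.258 in edgeR), so neither passed.

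ENSBTAG00000037649 came next among genes with higher values. Its lowest, median and highest values were 38.3, 42.8 and 50.2 CPM in VTM_LG and 32.3, 33.9 and 39.3 CPM in NoVTM_MG, and 7 of 8 VTM_LG livers lay above every NoVTM_MG liver. The log2 difference was 0.33 (SE 0.0724), with an adjusted p of 0.214 in edgeR and 0.0437 in DESeq2, and 0.36 without replicates 4 and 7 (adjusted p = 0.398 in edgeR, 0.0431 in DESeq2). NoVTM_MG was the lowest of the 4 groups for this gene. NoVTM_LG averaged 40.8 ± 4.99 CPM (SD, n = 8) and VTM_MG 40.9 ± 3.76 CPM (SD, n = 7), against 35 ± 2.59 CPM in NoVTM_MG and 43.8 ± 4.44 CPM in VTM_LG.

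ENSBTAG00000049916 had the smallest p of all genes tested. Its lowest, median and highest values were 0.889, 1.61 and 4 CPM in VTM_LG and 2.81, 4.56 and 7.66 CPM in NoVTM_MG. Only VTM_LG replicate 4, the highest of its group, lay inside the NoVTM_MG range, and the other 7 lay below it. The means were 1.89 ± 0.957 CPM and 4.98 ± 1.71 CPM (SD, n = 8 each), so the log2 difference was -1.40 (SE 0.271), with an adjusted p of 0.137 in edgeR and 0.00262 in DESeq2. Without replicates 4 and 7 the VTM_LG mean was 1.70 ± 0.388 CPM (SD, n = 6), and the log2 fold change was -1.54 (SE 0.271, adjusted p = 0.0429 in edgeR, 0.000104 in DESeq2). The groups then did not overlap, which follows from leaving out the only overlapping liver and adds no support. Without replicate 4 alone the gene passed in edgeR as well, at -1.65 (adjusted p = 0.00744). It also passed without NoVTM_LG replicate 4, a library outside the comparison (-1.41, adjusted p = 0.0265). In limma voom it did not pass with all libraries (adjusted p = 0.0553) or without replicates 4 and 7 (adjusted p = 0.169). The other groups averaged 3.59 ± 1.38 CPM in NoVTM_LG (SD, n = 8) and 2.28 ± 0.746 CPM in VTM_MG (SD, n = 7), between the compared groups. VTM_LG minus NoVTM_LG was -0.93 on the log2 scale (adjusted p = 0.601 in edgeR), and VTM_MG minus NoVTM_MG -1.13 (adjusted p = 0.955 in edgeR). The differences between gain levels, 0.47 (NoVTM_MG minus NoVTM_LG) and 0.27 (VTM_MG minus VTM_LG), did not pass either. The levels of this gene rest on few reads, with 41 to 106 counts per NoVTM_MG library and 19 to 37 in the 6 VTM_LG libraries without replicates 4 and 7.

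ENSBTAG00000043250 came second among the lower genes. Its lowest, median and highest values were 1.33, 2.05 and 2.46 CPM in VTM_LG and 2.46, 5.94 and 8.30 CPM in NoVTM_MG. VTM_LG was both low and narrow, with an SD of 0.42 CPM against 2.01 CPM in NoVTM_MG, and 7 of its 8 livers lay below the NoVTM_MG range. The log2 difference was -1.46 (SE 0.3), with an adjusted p of 0.137 in edgeR and 0.00426 in DESeq2, and -1.43 without replicates 4 and 7 (adjusted p = 0.398 in edgeR, 0.0301 in DESeq2). When only the 16 libraries of the compared groups were fitted, it was the 1 gene that passed in edgeR (-1.46, adjusted p = 0.0287). It also passed without NoVTM_LG replicate 4 (-1.46, adjusted p = 0.0316). NoVTM_LG averaged 4.68 ± 2.51 CPM (SD, n = 8) and VTM_MG 3.32 ± 1.64 CPM (SD, n = 7), between the compared groups.

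**Figure D3:**
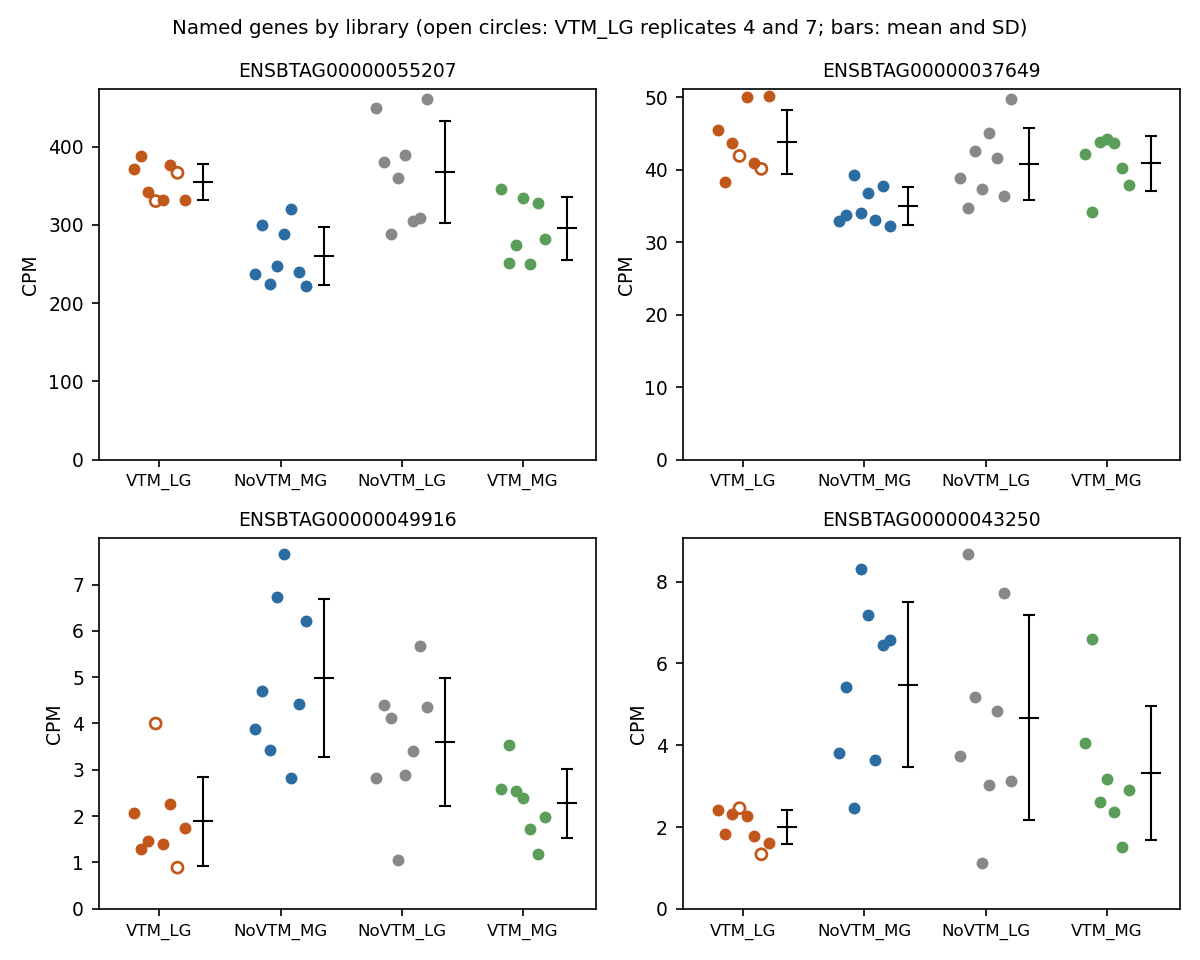
CPM of the 4 named genes in each library of the 4 groups, with the mean and SD beside the points and VTM_LG replicates 4 and 7 as open circles. For ENSBTAG00000055207 the VTM_LG points start at 330 CPM, above the NoVTM_MG maximum of 320, and for ENSBTAG00000049916 replicate 4 at 4 CPM is the VTM_LG point inside the NoVTM_MG range.

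The other 2 DESeq2 calls were the genes at rank 3 by p in each direction. The third lower gene had 6.54 to 8.83 CPM in VTM_LG and 8.59 to 13.3 CPM in NoVTM_MG, with 7 of 8 VTM_LG livers below the NoVTM_MG range. Its log2 difference was -0.46 (SE 0.0968), with an adjusted p of 0.137 in edgeR and 0.0162 in DESeq2. The third higher gene was close to the detection limit, at 0.209 to 2 CPM in VTM_LG and 0 to 0.686 CPM in NoVTM_MG (adjusted p = 0.214 in edgeR, 0.0437 in DESeq2). VTM_LG replicates 4 and 7 were among its 3 highest livers, and its log2 fold change was 1.65 with them and 1.32 without. DESeq2 called 4 genes without these replicates (0.028%): ENSBTAG00000049916, ENSBTAG00000043250, ENSBTAG00000037649 and a gene with 0 counts in the 6 remaining VTM_LG livers. That last gene had 2 and 1.27 CPM in replicates 4 and 7, was at 0 in 2 of 8 NoVTM_MG livers and reached 4.07 CPM there. With all 16 libraries its edgeR log2 fold change was -2.41 (adjusted p = 0.532).

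Among the 8 higher genes with the smallest p that reached 1 CPM in a group mean, absolute log2 fold changes ran from 0.33 to 2.36, with adjusted edgeR p-values of 0.137 to 0.317. For the 8 lower genes the ranges were 0.30 to 1.46 and 0.137 to 0.309. Each of these 16 genes had the same direction and an unadjusted edgeR p under 0.05 without VTM_LG replicates 4 and 7. That fit reuses the remaining libraries by which the genes were chosen, so it is not a separate check of them. The largest of these folds, in the seventh higher gene, came from 20.3 CPM in VTM_LG replicate 1, while the other 7 VTM_LG livers had 0.273 to 1.92 CPM and NoVTM_MG 0.222 to 1.37 CPM. Complete separation of the groups, with every VTM_LG liver above every NoVTM_MG liver, was found for 3 genes (0.0211%), and the reverse for 0 genes (0%). Besides ENSBTAG00000055207, these were a gene at 2 to 2.51 against 0.961 to 1.97 CPM (log2 fold change 0.54, adjusted p = 0.373 in edgeR) and one at 11.2 to 13.1 against 7.66 to 11.1 CPM (0.30, adjusted p = 0.392). They were named after their values were seen. Of the 12870 ways to split the livers into 8 and 8, 1 gives this order. With 14228 genes examined, some separated genes therefore arise without any difference between groups.

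Abundant genes with a large difference were few. Of 1221 genes with a mean of at least 100 CPM over the 16 libraries, 3 differed by at least 1 on the log2 scale (0.246%), and all 3 were lower in VTM_LG. The first, ranked seventh among the lower genes, had 437 to 1080 CPM in VTM_LG and 997 to 2490 CPM in NoVTM_MG, a log2 difference of -1.09 (SE 0.268), with an adjusted p of 0.303 in edgeR. The second had 425 to 1510 against 801 to 3478 CPM (-1.13, SE 0.309, adjusted p = 0.373 in edgeR), and the third 227 to 834 against 457 to 1711 CPM (-1.03, SE 0.295, adjusted p = 0.373 in edgeR). Their ranges overlapped and none passed. NoVTM_MG replicates 5, 7 and 8 were the 3 highest livers for each of these genes, and replicate 4 was the highest VTM_LG liver for each. Without VTM_LG replicates 4 and 7 the log2 fold changes were -1.10, -1.22 and -1.11. These 3 genes were picked by size of difference after the values were seen. In the 15 libraries of NoVTM_LG and VTM_MG, the gene of rank 7 had a Pearson r of 0.78 and 0.90 with the others. Those others had r of 0.66 and 0.68 with ENSBTAG00000049916, and 0.75 and 0.82 with ENSBTAG00000043250. These r, on log2 CPM centred within group, were not tested. The shared direction of the 3 genes can therefore not be counted as 3 separate observations.

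A few of the lower genes varied together between fetuses. This was examined in the 15 libraries of NoVTM_LG and VTM_MG, on log2 CPM centred within group. These libraries are in neither compared group, but they took part in the filter, the TMM scaling and the estimate of spread. Those steps lie behind the fold changes and the p-values that chose the genes, so the choice is not independent of these libraries. Over the 28 pairs among the 8 lower genes, 3 pairs passed an adjusted p of 0.05 (permutation test within groups, 100000 resamples, adjusted over 56 pairs including those among the 8 higher genes). They joined ENSBTAG00000049916, ENSBTAG00000043250 and the seventh lower gene. The median r was 0.08 over the 28 lower pairs and 0.10 over the 28 higher pairs. The share of all gene pairs that would pass was not computed, so the 3 pairs cannot be weighed against it. ENSBTAG00000049916 and ENSBTAG00000043250 had a Pearson r of 0.90 (n = 15, permutation p = 0.00011, adjusted p = 0.00308) and a Spearman rho of 0.80 (permutation p = 0.00141, adjusted p = 0.0263), and r was 0.76 without the 2 libraries farthest from the median. Within NoVTM_LG r was 0.89 (n = 8) and within VTM_MG 0.93 (n = 7). Among all 14227 other tested genes, ENSBTAG00000049916 was the one most correlated with ENSBTAG00000043250, and ENSBTAG00000043250 ranked 2 for ENSBTAG00000049916.

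ENSBTAG00000043250 and the seventh lower gene had r = 0.87 (permutation p = 0.0001, adjusted p = 0.00308), rho = 0.86 (permutation p = 0.0003, adjusted p = 0.0168) and r = 0.79 without the 2 farthest libraries. ENSBTAG00000049916 and the seventh lower gene had r = 0.79 (permutation p = 0.00106, adjusted p = 0.0148), but rho = 0.72 did not pass (permutation p = 0.005, adjusted p = 0.07), and r was 0.58 without the 2 farthest. Among the 8 higher genes 1 of 28 pairs passed, ENSBTAG00000055207 with the eighth higher gene (r = 0.79, permutation p = 0.00096, adjusted p = 0.0148, rho = 0.81, permutation p = 0.00095, adjusted p = 0.0263, and r = 0.71 without the 2 farthest). Within NoVTM_LG this r was 0.95 (n = 8) and within VTM_MG 0.48 (n = 7). By r, the eighth higher gene ranked 14 among the 14227 other genes for ENSBTAG00000055207, and ENSBTAG00000055207 ranked 26 for the eighth higher gene.

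The number of genes at an unadjusted p under 0.05 was 1272 with VTM_LG replicates 4 and 7 and 652 without them, in a fit with fewer libraries. Of the 1272, 411 were also found, in the same direction, without these replicates, 237 of them higher and 174 lower. This is 32.3% of the first set and 63% of the 652 genes found without them. Replicate 4 was the highest VTM_LG library for 57.4% of the 727 higher genes and the lowest for 51% of the 545 lower genes, against 2.61% to 11.1% and 2.75% to 24.6% in the other VTM_LG libraries. It was the highest or the lowest VTM_LG library for 60.1% of the 1272 genes and for 50.3% of all genes tested, where the other VTM_LG libraries had 12.6% to 32.4% and 13.7% to 36.8%. Among NoVTM_MG livers, replicate 6 was the highest for 38.5% of the 727 genes that were higher in VTM_LG, against 6.6% to 11.3% in the others. It was also the lowest for 23.3% of the 545 lower genes, against 7.89% to 13.4%. Over all genes tested it was the highest or the lowest NoVTM_MG library for 35.6%, where the others had 17.8% to 30.5%.

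The difference between these fits lay mainly in well-expressed genes. With all libraries, genes with an unadjusted p under 0.05 made up 6.49% of those under 1 CPM, 7.79% of those from 1 to 10 CPM, 9.79% of those from 10 to 100 CPM and 10.5% of those at 100 CPM and over. Without replicates 4 and 7 these shares were 6.7%, 5.24%, 3.91% and 4.01%. The median SD of log2 CPM was 0.255 in VTM_LG and 0.199 in NoVTM_MG, and it was 0.195 in VTM_LG without the 2 replicates. The spread in VTM_LG exceeded that in NoVTM_MG for 68% of genes with them and for 48.9% without them.

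**Figure D4:**
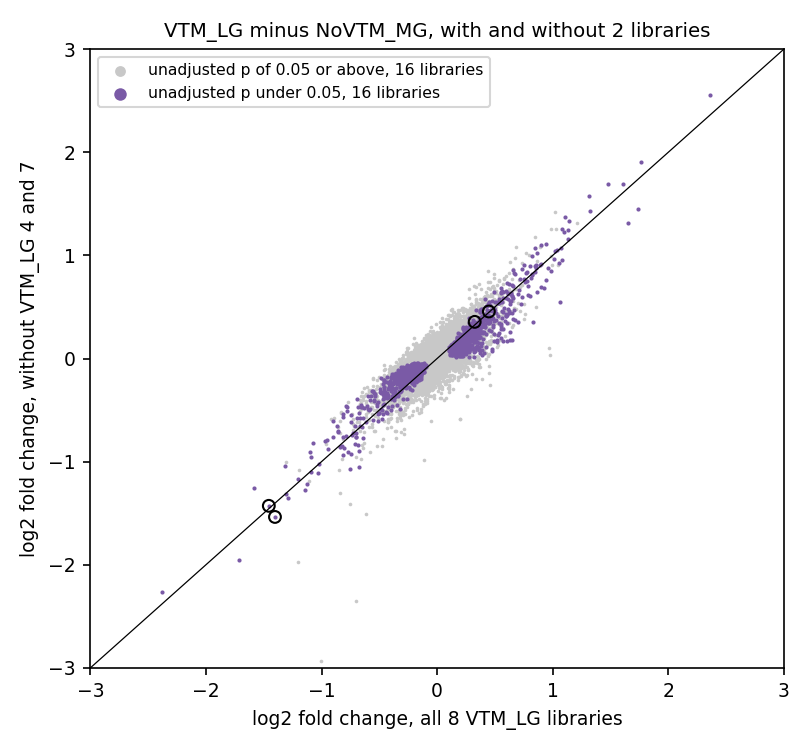
Log2 fold change of VTM_LG minus NoVTM_MG with all 8 VTM_LG libraries (horizontal) and without replicates 4 and 7 (vertical), 1 point per gene tested in both fits, with the 4 named genes circled and 2 of 14225 genes outside the axes. The named genes lie near the diagonal, and the marked genes were chosen by an unadjusted p under 0.05 in the fit on the horizontal axis.

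The genes that moved most when replicates 4 and 7 were left out differed from those that led the comparison. The abundant gene with the 5th-largest downward shift had 3109 CPM in VTM_LG replicate 4 and 249 to 565 CPM in the other 7 VTM_LG livers, against 554 to 1157 CPM in NoVTM_MG. Its log2 fold change was -0.12 with all libraries (adjusted p = 0.945 in edgeR) and -0.98 without the 2 replicates (adjusted p = 0.505 in edgeR). The 5 genes shifted downwards moved by -0.87 to -5.58 on the log2 scale, and all 5 kept their direction. The largest of these shifts was in the gene with 0 counts in the 6 remaining VTM_LG livers. The 5 genes shifted upwards moved by 0.36 to 0.41, and in 4 of them the direction stayed the same.

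Leaving out single libraries of the compared groups moved the count of genes at an unadjusted p under 0.05 between 789, without VTM_LG replicate 4, and 1751, without VTM_LG replicate 8. Replicate 8 lay at -23.1 on the first component, at the opposite end from replicates 4 and 7. Without VTM_LG replicate 7 the count was 913. In the NoVTM_MG group the highest count, 1623, was found without replicate 6.

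**Figure D5:**
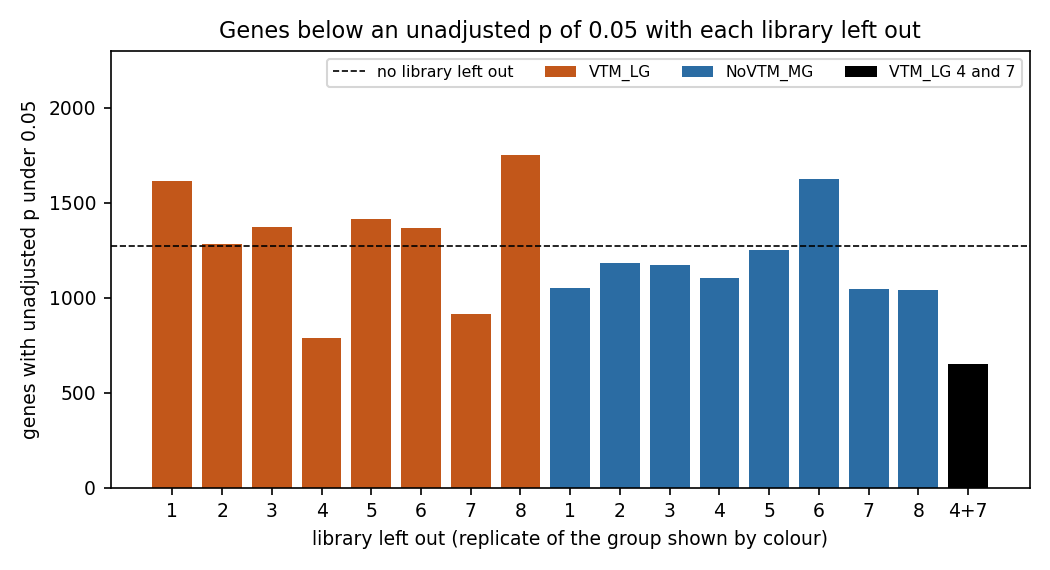
Number of genes with an unadjusted p under 0.05 when each of the 16 libraries is left out, with VTM_LG replicates 4 and 7 together as the last bar and the count of 1272 with no library left out as the dashed line. The bars run from 789 to 1751 for single libraries, and the last bar stands at 652.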

How the data were processed

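The authors deposited raw counts per gene, whole numbers with no normalization, for 27607 Ensembl bovine identifiers in 31 strand-specific libraries read in pairs of 150 bp, per the labels. Per the submitters' processing notes, CASAVA, FastQC 0.11.8, MultiQC 1.9, STAR 2.7.3a and edgeR were used. The sources used here do not give the build, annotation, counting program or use of strand, so reads shared between similar, overlapping or antisense genes could not be checked.

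Columns were matched to samples by title. Replicate numbers follow accession order and are only names. Genes were kept by filterByExpr (minimum count 10, minimum total 15), scaled by TMM and tested with the quasi-likelihood test of edgeR 4.0.16 in R 4.3.3, with all 31 libraries and 1 mean per group. P-values were adjusted by the Benjamini-Hochberg method over the 14228 genes. DESeq2 1.42.0 and limma 3.58.1 voom with quality weights were alternatives. Library measures were tested by exact permutation. Principal components and correlations took log2 CPM computed with edgeR (prior count 2). The procedures were tested on simulated data. No pair of the 16 libraries agreed within sampling noise (120 pairs, chi-square per degree of freedom of at least 7.46). P-values measure the spread between fetuses.

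The comparison and gene lists were chosen with earlier results of these data known. The 33 gene lists (21 pathways, 12 cell types) could not be used, as 0 identifiers matched a symbol. Named genes were the 8 of smallest p in each direction with a group mean of at least 1 CPM, genes past 0.05 in DESeq2, voom or the fit without VTM_LG replicates 4 and 7, and the 5 most shifted in each direction by leaving these out. Identifiers are printed for the 2 of smallest p in each direction.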

Additional observations from a re-analysis of the deposited data

Results flagged for a closer look

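Of 42 sets of 8 values examined, 5 held a library with a gap to its neighbour above the 95% critical value of Dixon's test. Chance gives about 1 in 20 for sets chosen without regard to their values. Some of these sets were of genes chosen from the same values, by p or by their shift when libraries were left out. The count of 5 can therefore not be weighed against that rate. In VTM_LG replicate 4 the most abundant gene took 5.48% of the counts. The same library had 4.00 CPM of ENSBTAG00000049916, against 0.889 to 2.26 CPM in the other VTM_LG livers, and 3109 CPM of the abundant gene with the 5th-largest downward shift. VTM_LG replicate 1 had 20.3 CPM of the seventh higher gene. NoVTM_MG replicate 3 lay at -22.3 on the first component, against -8.21 to 0.43 in the other NoVTM_MG livers.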

How the results depend on the processing

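The count of genes past the adjusted threshold was 0 in 37 of 46 other settings. Of these 37, 29 left out 1 library each, and 1 used an adjusted threshold of 0.10. Another only added a fold cut to the main fit, so it could give no other count. The count was 6 in DESeq2 and 6 in the edgeR likelihood ratio test, 1 with only the 16 compared libraries, and 1 without VTM_LG replicates 4 and 7. It stayed at 1 without these replicates when only the 14 remaining libraries were fitted or when the 14228 genes of the full fit were kept, and was 4 in DESeq2 without them. Leaving out single libraries gave 0 to 2 calls: omitting VTM_LG replicate 4 gave 1, and omitting NoVTM_LG replicate 4 gave 2. The count at an unadjusted p under 0.05 was 1272 and ran from 789 to 1751 with single libraries left out. It was 813 with only the 16 libraries. Without VTM_LG replicates 4 and 7 it was 652, or 559 with only the 14 libraries, 655 with the genes of the full fit, 656 in DESeq2 and 838 in limma voom. The 4 named genes kept their direction in all 44 refits. The refits reuse most of the libraries by which these genes were chosen, so the kept direction is not a separate check. ENSBTAG00000049916 passed in 8, ENSBTAG00000043250 in 5, ENSBTAG00000055207 in 2 and ENSBTAG00000037649 in 2, with adjusted p-values of up to 0.398. Between library means (VTM_LG minus NoVTM_MG), the difference in genes detected turned from -34.9 to 49 and that in genes at least 2-fold below the median from 150 to -7.79 without replicates 4 and 7. The fit that kept the genes of the full fit and the omission of libraries outside the 2 groups were added after seeing the data. The alternatives for gene lists were not run, as no symbol was matched. No paired or blocked analysis was run, since the labels pair no fetuses and give no breeding group per fetus. Depth limits the low genes: ENSBTAG00000049916 rests on 19 to 37 counts per library in the VTM_LG libraries other than replicates 4 and 7.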
